A study of Mus musculus with 2 samples.

Results

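The genes of bile acid synthesis and transport were examined in primary hepatocytes of C57BL/6J mice with the WT genotype. The set held 10 genes chosen by symbol, namely Cyp7a1, Cyp7b1, Cyp8b1 and Cyp27a1 for synthesis, Baat and Slc27a5 for conjugation, Slc10a1 and Abcb11 for transport, and Nr1h4 and Nr0b2 for regulation. All 10 were found among the 20317 mRNA genes of the deposited table that carry a symbol. One library came from mice that received oil by intraperitoneal injection. The other came from mice injected with a 20% CCl4 solution in mineral oil at 2.5 ml CCl4 per kilogram, 2 times a week. CCl4 is turned into a toxic radical by hepatocyte enzymes, and liver fibrosis follows when dosing is repeated. The mice were males, 5 weeks old when obtained, and the labels give 8 weeks of injection whereas the methods give 4 weeks. Hepatocytes were taken by enzymatic perfusion and a density gradient, so that other liver cells can be carried along. How many mice were pooled into a library, if any, is not given in the sources used here. With 1 library per condition no difference has a replicate check, and no p-value or SD is given.

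Bile acids are made from cholesterol in hepatocytes. In the classical route Cyp7a1 takes the first and rate-limiting step, and in the alternative route Cyp27a1 and Cyp7b1 act in turn, while Cyp8b1 sets the proportion of cholic acid. The acids are then joined to taurine or glycine, pumped into bile and taken up again from portal blood. The bile acid receptor FXR, encoded by Nr1h4, induces Nr0b2, which encodes the repressor SHP, and SHP in turn restrains Cyp7a1 and Cyp8b1.

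The values are RPKM, a level per length in which reads are scaled to the transcript and to the library, and those below 1 RPKM were listed as 0. A gene was called higher or lower when its log2 fold change for CCl4 over oil reached 1 in size, with 0.1 RPKM added to both values. The spacing of the values of short genes among the annotated lncRNAs gave a depth of 57992176 reads for the oil and 64655528 reads for the CCl4 library. These depths were carried over to the mRNA values. The new lncRNAs, deposited separately with read counts, correspond to other totals, 6.24e+07 reads for oil and 7.10e+07 for CCl4. Those totals were used for the new lncRNAs only. Of 10689 mRNA genes at 1 RPKM or more in both libraries, 14.3% were called higher and 5.48% lower, and the median log2 fold change was 0.30. Of the found hepatocyte markers, 6 of 11 were called lower, and 11 of 12 stellate cell and myofibroblast markers were called higher.

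Of the 10 bile acid genes, 7 were called lower and 1 higher in the CCl4 library, against the 5.48% and 14.3% of all genes. The remaining 2, Slc10a1 and Nr1h4, had log2 fold changes below 0 that were too small for a call. The 7 genes called lower lay between percentiles 0.0561 (Cyp7b1) and 3.60 (Abcb11) of the log2 fold changes of all compared genes. The median log2 fold change of the 10 genes was -1.36, and their summed level went from 868.5 RPKM in the oil library to 351.7 RPKM in the CCl4 library. Thus 9 of 10 genes had the lower value in the CCl4 library, whereas 32.4% of all compared genes did. Genes of high level were called lower more often than others, at 11.0% of the genes with a mean of at least 10 RPKM. Cyp7a1 was the exception in direction. In these bulk samples fewer hepatocytes and less of an RNA per hepatocyte cannot be told apart. With the libraries scaled to the hepatocyte markers, 1 of the 10 genes was called lower and 1 higher, against 0.412% and 80.4% of all genes on that scale.

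**Figure D1:**
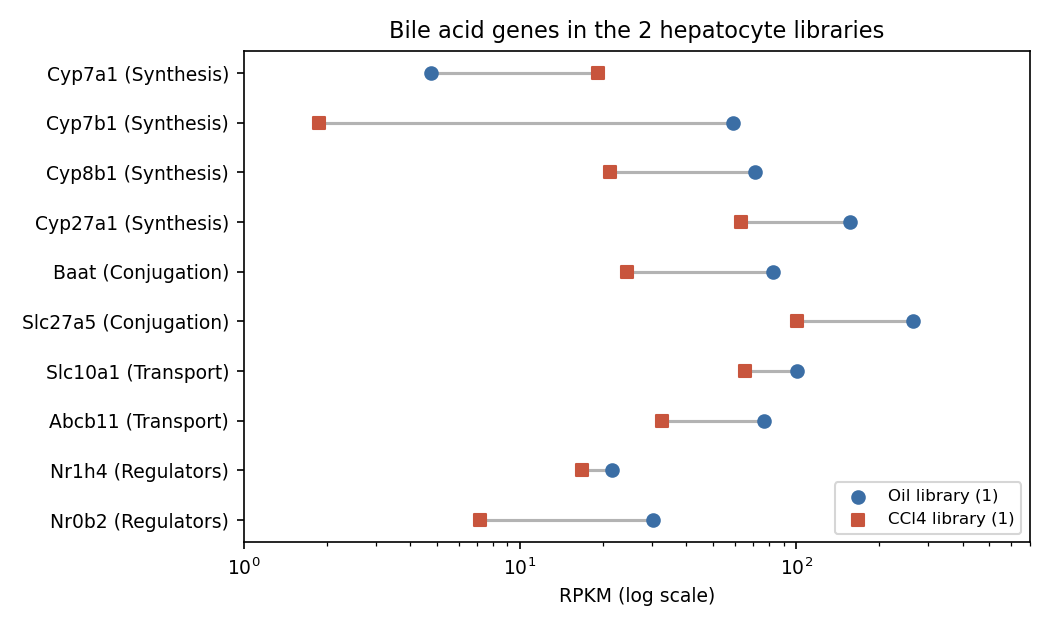
RPKM of each of the 10 bile acid genes on a log axis, with a circle for the oil library and a square for the CCl4 library, 1 library each and no error bars. Cyp7a1 lies to the right in the CCl4 library, from 4.74 to 19.2 RPKM, and the other 9 genes lie to the left, Cyp7b1 the furthest.

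Cyp7a1, the rate-limiting enzyme of the classical route, was at 4.74 RPKM after oil and 19.2 RPKM after CCl4. It was 4.05-fold higher in the CCl4 library, a log2 fold change of 1.996, at percentile 98.2 of the compared genes. In the oil library it had the lowest level of the 10 genes. In the CCl4 library it lay above Cyp7b1, Nr0b2 and Nr1h4. Cyp7a1 (NM_007824) lies on chromosome 4 from 6265612 to 6275632 in GRCm38.p6, which corresponds to the mm10 build named in the submitters' processing notes.

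Cyp7b1, the oxysterol hydroxylase of the alternative route, went the other way. Its level was 58.8 RPKM after oil and 1.88 RPKM after CCl4, 31.3-fold lower. The log2 fold change of -4.90 was rank 6 from the lowest of 10689 genes. Cyp7b1 (NM_007825, chromosome 3 from 18071944 to 18243890) thus passed from rank 803 by level among all genes in the oil library to rank 10580 in the CCl4 library. In the CCl4 library it was close to the limit of 1 RPKM below which values are listed as 0.

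Cyp8b1, which directs synthesis toward cholic acid, was at 71.1 RPKM after oil and 21.1 RPKM after CCl4, with a log2 fold change of -1.75. Cyp27a1, the mitochondrial side-chain hydroxylase that opens the alternative route, was at 157 and 62.8 RPKM in the same order, with a log2 fold change of -1.32. Both enzymes were called lower, yet neither approached the decrease of Cyp7b1. Cyp8b1 (NM_010012) lies on chromosome 9 from 121914356 to 121916305, and Cyp27a1 (NM_024264) on chromosome 1 from 74713148 to 74737897. The Cyp8b1 gene has no intron, so its span of 1950 bases is its transcript length. With it, the RPKM values correspond to 8045 reads in the oil and 2662 reads in the CCl4 library.

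Ratios of levels per length within a library do not depend on how the libraries are scaled. After oil the RPKM of Cyp7b1 was 12.4 times that of Cyp7a1, and after CCl4 it was 0.0977 times. Cyp7a1 was at 0.0667 times the RPKM of Cyp8b1 after oil and at 0.910 times after CCl4, where the levels of these 2 enzymes of the classical route were nearly equal. Relative to Cyp27a1, Cyp7b1 went from 0.375 to 0.0299. The enzymes of the alternative route thus did not share 1 fold change, and neither did those of the classical route.

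The genes of conjugation both had lower levels in the CCl4 library. Slc27a5, which activates bile acids to their CoA esters, had the highest level of the 10 genes in both libraries, at 265.3 RPKM in oil and 100.3 RPKM in CCl4, with a log2 fold change of -1.40. Baat, which transfers the activated acid to taurine or glycine, was at 82.5 and 24.4 RPKM, with a log2 fold change of -1.76. The ratio of Baat to Slc27a5 was 0.311 after oil and 0.243 after CCl4, so their levels moved by similar factors. Slc27a5 (NM_009512) lies on chromosome 7 from 12988346 to 12998192 and Baat (NM_007519) on chromosome 4 from 49489416 to 49507915.

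The 2 transporters differed in size of change. Abcb11, the bile salt export pump of the canalicular membrane, was at 76.2 RPKM after oil and 32.7 RPKM after CCl4, and its log2 fold change of -1.22 was called. Slc10a1, the sodium-dependent carrier that takes bile acids up from portal blood, was at 100.9 and 65.3 RPKM, with a log2 fold change of -0.63 that was not called. A second Slc10a1 transcript was at 85.5 and 55.8 RPKM, or -0.61 on the log2 scale, and since the transcripts overlap their reads may be shared. The ratio of the export pump to the uptake carrier was 0.755 after oil and 0.502 after CCl4. Abcb11 (NM_021022) lies on chromosome 2 from 69238282 to 69342616 and Slc10a1 (NM_001177561, NM_011387) on chromosome 12 from 80953185 to 80968705.

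Of the regulators, the receptor gene Nr1h4 had the log2 fold change nearest to 0 of the 10 genes. It was at 21.5 RPKM after oil and 16.8 RPKM after CCl4, or -0.36 on the log2 scale, and its 3 listed transcripts lay between -0.36 and -0.33. Nr0b2, which the receptor induces, was at 30.4 and 7.18 RPKM, 4.23-fold lower in the CCl4 library, with a log2 fold change of -2.07 at rank 67 from the lowest. The ratio of Nr0b2 to Nr1h4 was 1.41 in the oil and 0.428 in the CCl4 library. Nr1h4 lies on chromosome 10 from 89454234 to 89533645 (the transcript used was NM_009108) and Nr0b2 (NM_011850) on chromosome 4 from 133553376 to 133556686.

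RefSeq promoters of GRCm38.p6 were matched to 6 of the 10 genes, as 7 sequences, and none to Cyp7a1, Cyp7b1, Baat and Slc27a5. The 250 bases before each start were searched on both strands for the nuclear receptor core element AGGTCA and for its extended forms CAAGGTCA and CAAGGCCA, of which the first contains the core element. The core element was present in 3 of the 7 sequences, those of Abcb11, Nr1h4 and 1 of the Slc10a1 starts, against 14.0% of 32851 promoters. An extended form was present in 1 of them, Nr0b2, against 3.28% of all promoters. The sequences of Cyp8b1 and Cyp27a1 held neither. The Nr1h4 sequence, the Slc10a1 sequence with the core element and that of Cyp27a1 belong to starts inside the gene spans given here, not at their ends. The promoters of Abcb11 and Nr0b2 are shown because these genes, both known targets of the receptor, were called lower. They lie at chr2:69342617-69342866 on the minus strand and at chr4:133553126-133553375 on the plus strand, and capitals mark the matches. The Abcb11 match, which reads TGACCT as printed because it lies on the opposite strand, spans bases 56 to 51 before the start. The Nr0b2 match spans bases 201 to 194. A match describes the letters only.

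Abcb11: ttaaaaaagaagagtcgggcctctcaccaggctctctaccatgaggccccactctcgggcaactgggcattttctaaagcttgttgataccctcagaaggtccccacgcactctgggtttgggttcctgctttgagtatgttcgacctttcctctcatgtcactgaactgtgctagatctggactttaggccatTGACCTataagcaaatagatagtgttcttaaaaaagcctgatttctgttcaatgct

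Nr0b2: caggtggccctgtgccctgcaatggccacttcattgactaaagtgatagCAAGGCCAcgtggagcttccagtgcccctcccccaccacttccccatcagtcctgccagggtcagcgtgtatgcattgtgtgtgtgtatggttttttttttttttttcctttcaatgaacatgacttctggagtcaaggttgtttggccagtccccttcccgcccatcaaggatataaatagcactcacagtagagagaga

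**Figure D2:**
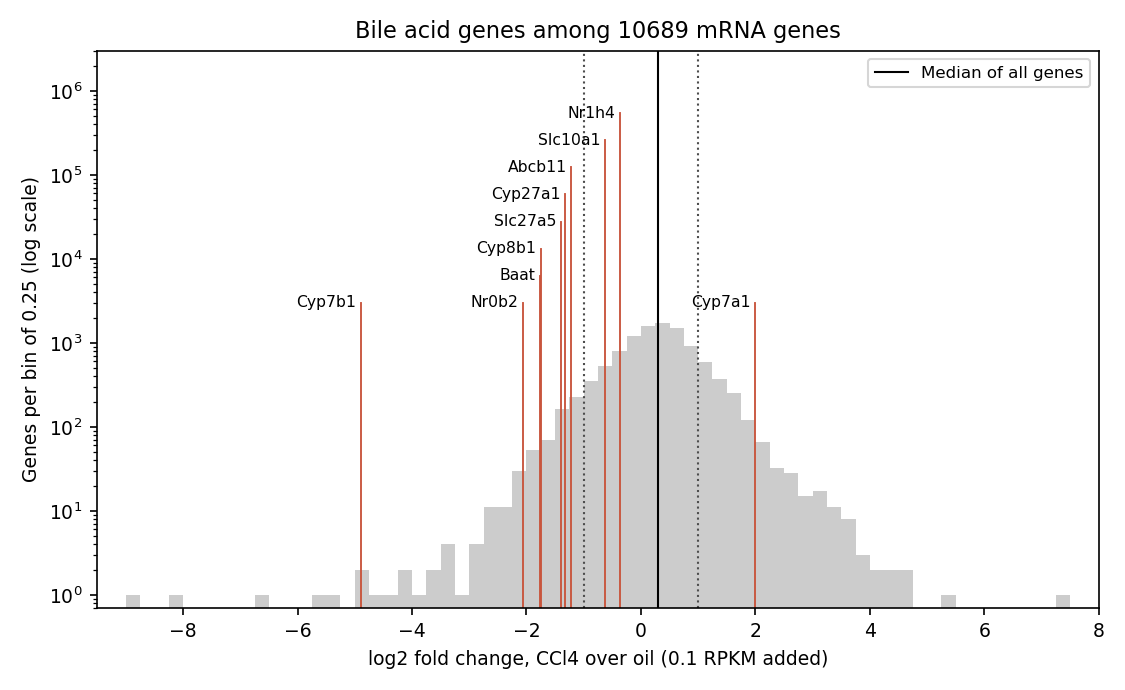
Histogram of the log2 fold change (CCl4 over oil, 0.1 RPKM added) of 10689 mRNA genes, in bins of 0.25 with a log axis for the number of genes. Red lines of arbitrary height mark the 10 bile acid genes, dotted lines the calls at -1 and 1, and the black line the median of 0.30. Of the bile acid genes, 9 lie left of that median and Cyp7a1 lies right of it.

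Counting error was small beside these differences. In the oil library, 1 kilobase of transcript was covered by 275 reads for Cyp7a1, the fewest, and by 15387 reads for Slc27a5, the most. In the CCl4 library the range was from 121 reads for Cyp7b1 to 6485 reads for Slc27a5. For reads of 1 kilobase, with nothing added, the log2 ratio of Cyp7a1 lay between 1.83 and 2.21 and that of Cyp7b1 between -5.25 and -4.71 (95% exact Clopper-Pearson intervals). The interval of Nr1h4, the gene with the log2 ratio nearest to 0, was -0.48 to -0.24. These intervals cover counting error only. Variation between mice or preparations is not measured here, so genes with similar fold changes, such as Baat and Cyp8b1, cannot be ordered.

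Markers of liver cell types also differed between the libraries. Of 12 hepatocyte markers 11 were found, each with a log2 fold change below 0, 6 of them called lower, with a median of -1.31 and a range from -2.33 to -0.42. Their summed level went from 23086 to 12302 RPKM. Albumin (Alb) was at 8656 RPKM after oil and 6476 RPKM after CCl4, so both libraries carry the defining hepatocyte marker at a high level. Of 12 stellate cell and myofibroblast markers, 11 were called higher and the other, Pdgfrb, was listed at 0 in the oil library and at 16.8 RPKM in the CCl4 library. The summed level of this list went from 88.7 to 928.6 RPKM, with Col1a1, a fibrillar collagen chain, at 3.02 and 130.5 RPKM. The part of these cells in the values of the bile acid genes was not tested.

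Libraries were therefore also scaled so that the median of the hepatocyte markers had no change. On that scale the median log2 fold change of the 10 bile acid genes was -0.05, and 1 gene was called in each direction. Cyp7b1 stayed lower at -3.63 and Cyp7a1 higher at 3.30. Nr0b2 had -0.77, Baat -0.45 and Cyp8b1 -0.44, so none of these 3 was called. Cyp27a1 at -0.01, Slc27a5 at -0.09 and Abcb11 at 0.09 were close to the median of the hepatocyte markers, and Slc10a1 at 0.68 and Nr1h4 at 0.95 lay above it. The markers themselves ranged from -2.33 to -0.42 with RPKM as deposited. Of the members, only Cyp7b1, Cyp7a1 and Nr1h4 lay outside that range. Cyp7b1 was thus the member called lower on this scale, against 0.412% of all genes, and Cyp7a1 the member called higher, a call shared by 80.4% of all genes. Whether the other members differ from the hepatocyte markers was not tested. On this scale 0.509% of the calls were lower, against 27.7% with RPKM as deposited and 54.9% with scaling to the median mRNA gene. That last scaling gave -5.18 for Cyp7b1 and 1.70 for Cyp7a1, and kept all 10 genes on their side of 0.

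**Figure D3:**
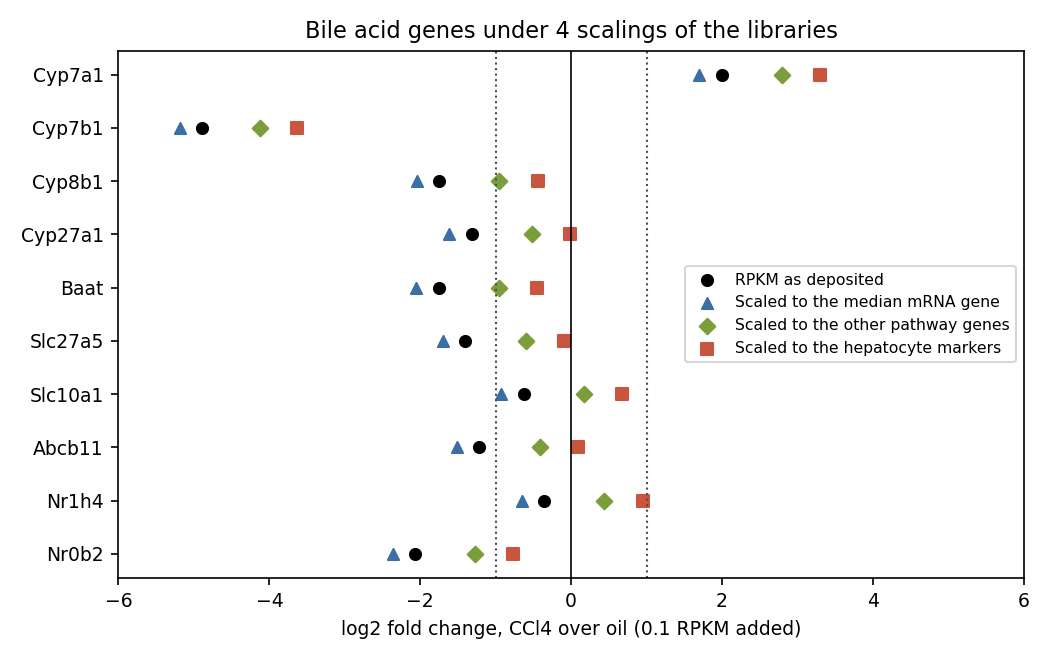
The log2 fold change (CCl4 over oil, 0.1 RPKM added) of each bile acid gene under 4 scalings, namely RPKM as deposited, the median mRNA gene, the other bile acid pathway genes and the hepatocyte markers. Dotted lines mark the calls at -1 and 1. Cyp7a1 stays above 1 and Cyp7b1 below -3 under all 4. Slc10a1 and Nr1h4 lie above 0 with the other pathway genes or the hepatocyte markers set to no change, and Abcb11 with the hepatocyte markers.

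Hepatocytes near the central vein and near the portal vein differ in bile acid synthesis, and markers of both zones were examined. Of 10 pericentral markers, 5 were called lower, with a median log2 fold change of -1.66 over the 8 genes with a value in both libraries, and of 10 periportal markers 6 were called lower, with a median of -1.08. Of the other 2 pericentral markers, Lgr5 was listed at 0 in both libraries, and Axin2 was listed at 0 in the oil library and at 2.06 RPKM in the CCl4 library. Glul, the pericentral glutamine synthetase, was at 211.5 and 151.4 RPKM, and Cyp2f2, a periportal P450, at 222.1 and 101.1 RPKM. Cholangiocytes, the cells of the bile ducts, also transport bile acids. Of their 12 markers 2 were called higher and 1 lower, and 5, among them Sox9 and Cftr, were listed at 0 in both libraries. Krt19 was at 8.86 and 17.8 RPKM. The marker called lower was Slc10a2, the apical carrier that takes up bile acids, at 12.2 and 2.92 RPKM, named here after its value was seen. It was the 1 marker below 0 of the 7 with a value in both libraries, whose median log2 fold change was 0.64. The summed level of the list went from 77.5 to 195.1 RPKM. Most of that rise lay in Spp1, called higher, at 37.4 and 145.1 RPKM. Clec4f of Kupffer cells was at 282.6 and 254.5 RPKM and Stab2 of sinusoidal endothelium at 41.3 and 70.0 RPKM. Of 9 Kupffer cell and macrophage markers found, 5 were called higher, and of 10 sinusoidal endothelial markers 2, with none called lower in either list. Of all compared genes, 14.3% were called higher and 5.48% lower, so the endothelial count was near the share of all genes. For Kupffer cells and macrophages the median on the log2 scale was 1.10 and the summed level went from 1138 to 3186 RPKM, and Clec4f was the 1 marker of its 9 below 0. For the endothelial markers the median was 0.76 and the summed level went from 616.2 to 1059 RPKM.

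The other genes of the pathway were taken from 5 lists with 49 genes in all. Of these, 12 were called lower, 1 was called higher, 29 were not called and 7 were listed at 0 in both libraries, where 5.48% of all genes were called lower and 14.3% higher. The median log2 fold change of the 42 genes with a value in both libraries was -0.80.

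Of 14 other synthesis enzymes, 6 were called lower, against 5.48% of all genes, and 6 were not called. The median log2 fold change was -1.03. Scp2, whose longer product is the peroxisomal thiolase of side-chain shortening, was at 945.3 and 212.1 RPKM, with a log2 fold change of -2.16. Akr1c6, an aldo-keto reductase, was at 225.9 and 79.1 RPKM (-1.51 on the log2 scale). Cyp2c70, which makes the muricholic acids of mice, was at 229.5 and 69.6 RPKM, with a log2 fold change of -1.72. Slc27a2, a CoA ligase of fatty and bile acids, had a log2 fold change of -1.31. Acox2, the branched-chain oxidase of side-chain shortening, had -1.12 and Hsd3b7, which acts after the first hydroxylation, -1.06. None of the 14 was called higher, and Ch25h and Cyp46a1, which make oxysterols, were listed at 0 in both libraries.

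Of 5 other genes of uptake, 2 were called lower, against 5.48% of all genes. Slco1a1, an organic anion carrier of the sinusoidal membrane, was at 47.7 RPKM after oil and 2.67 RPKM after CCl4, with a log2 fold change of -4.11, the lowest of the 49 genes. Slco1b2, its relative that takes up unconjugated bile acids, was at 86.1 and 32.1 RPKM, with -1.42. The highest of the list by level in the CCl4 library was Ephx1, the microsomal epoxide hydrolase, at 84.7 and 92.8 RPKM. On the side of bile, Abcb1a, 1 of 9 canalicular genes, was listed at 0 in both libraries. Of the 8 others, 2 were called lower, against 5.48% of all genes. These were the paired sterol transporters Abcg5 (9.62 and 3.85 RPKM, -1.30 on the log2 scale) and Abcg8 (6.96 and 2.38 RPKM, -1.51). Tmem30a, the partner subunit of lipid flippases, had a log2 fold change of -0.37 and Abcc2, the exporter of conjugated bilirubin, -0.80. All 8 canalicular genes with a value in both libraries were below 0, with a median of -0.81.

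Of 5 genes of basolateral efflux, on the side of blood, 3 had a value in both libraries. Abcc6 alone was called, at 16.3 and 7.52 RPKM with a log2 fold change of -1.11, where 5.48% of all genes were called lower. Abcc6, a transporter of the same family as Abcc3, is not established as an exporter of bile acids. Abcc3, an exporter of glucuronides and bile acids, was at 27.7 and 28.6 RPKM (0.04 on the log2 scale). Slc51a and Slc51b, the subunits of the organic solute transporter, were listed at 0 in both libraries. Of 16 other regulators, 1 was called lower, 1 higher and 12 were not called. The other 2, Ppargc1a and Gpbar1, were listed at 0 in both libraries. Of all compared genes, 5.48% were called lower and 14.3% higher, so these counts were near or below the shares of all genes. Hnf4a, the hepatocyte nuclear factor that drives many of these genes and also stands in the hepatocyte marker list, was at 148.9 and 50.1 RPKM, with -1.57 on the log2 scale. Cebpa was at 92.5 and 98.1 RPKM, with 0.08. Nr2f2, a nuclear receptor also made by mesenchymal and endothelial cells, was called higher, from 2.51 to 7.74 RPKM.

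**Figure D4:**
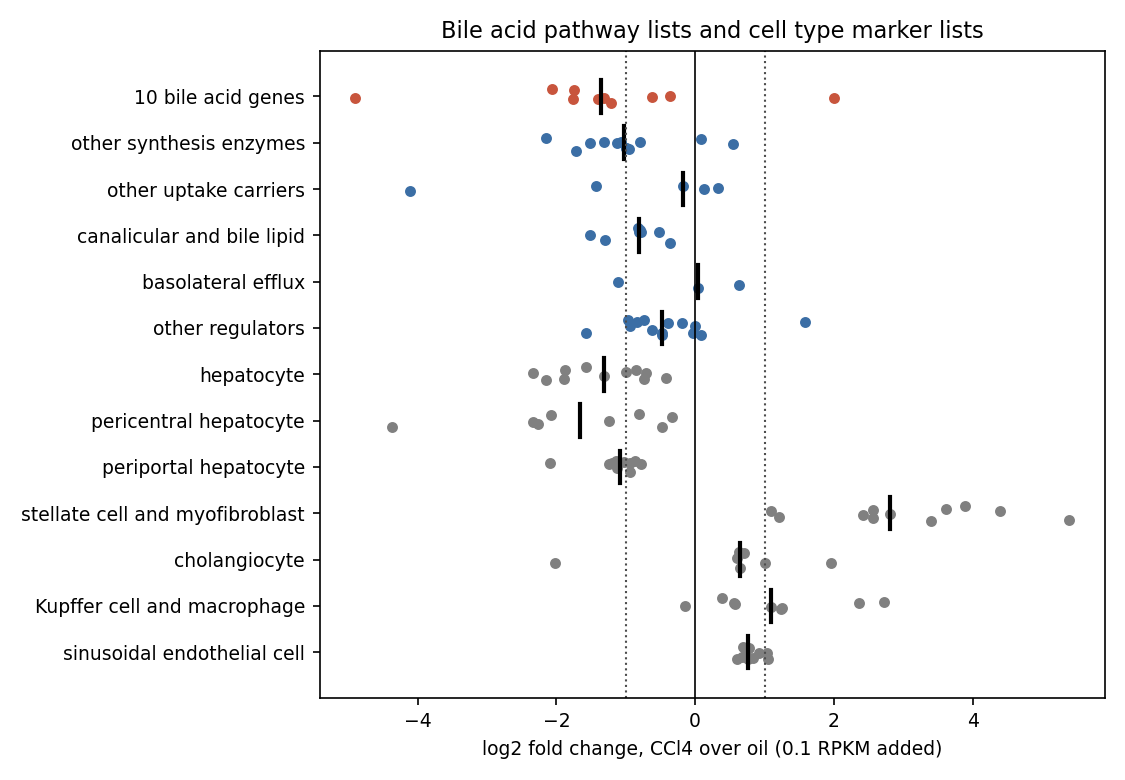
The log2 fold change (CCl4 over oil, 0.1 RPKM added) of each gene with at least 1 RPKM in both libraries, in rows for the 10 bile acid genes, 5 other pathway lists and 7 cell type marker lists, with a black bar at each median and random vertical offsets. The bile acid genes have a median of -1.36, the hepatocyte markers -1.31 and the stellate cell and myofibroblast markers 2.81.

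By level in both libraries, the genes most like Cyp7b1 were Mup10, Slco1a1 and Amy2a5, at Euclidean distances of 0.34, 0.57 and 1.12 in log2(RPKM + 0.1) over 2 libraries. Mup10, at 68.8 and 1.56 RPKM, belongs to a family of near-identical copies, so its reads may be split among them. Among the genes most like Slc27a5, the most abundant of the set, were Errfi1 and Zg16, at distances of 0.037 and 0.097. With 2 libraries such likeness is a description of level and ratio only.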

How the data were processed

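RNA was measured in 2 libraries of mouse hepatocytes, grouped by the injection given in the labels. The authors deposited RPKM values for annotated mRNAs, annotated lncRNAs and new lncRNAs, and read counts with lengths for the new lncRNAs. CASAVA 1.4, TopHat2 and mm10 are named in the submitters' processing notes. The counting program, annotation version and strand setting are not given in the sources used here. Every value below 1 RPKM was listed as 0 (for the new lncRNAs, those listed as 0 reached at most 0.977 RPKM in the CCl4 library where given in full). The authors' own log2 fold changes, p-values and q-values were not used. Of 27457 mRNA transcripts, 27049 were paired with a symbol through RefSeq accessions of GRCm38.p6, and of several transcripts of a gene the one with the largest mean RPKM was taken. No statistical test was run on any gene, since each group has 1 library, and a listed 0 was given no fold change. Depth was found from RefSeq genes below 400 bases in the annotated lncRNA values. It was the library total at which their RPKM steps gave whole reads within 0.05. This held in 206 of 212 genes for oil and 215 of 223 for CCl4. The step was taken after the data were seen, and the depths were carried over to the mRNA values. The members, gene lists and call rule were chosen with earlier results of these data known. Genes were named by rule: all members, and of each other pathway list the 2 with the highest mean RPKM and every called gene. Of the marker lists, Alb, Hnf4a, Col1a1, Krt19, Clec4f, Stab2, Glul and Cyp2f2 were named by rule. Pdgfrb, Slc10a2, Spp1, Sox9, Cftr, Lgr5 and Axin2 were named after their values were seen, as were the pathway genes listed at 0. The 3 genes nearest to the member with the largest fold change and to the most abundant member were also named by rule, of which 1 is not reported here. The call rule was tested on simulated data with counting error only. The alternatives were other pseudocounts, scalings, filters, thresholds and summed transcripts. Python 3.11.15, numpy 2.4.6, pandas 2.3.3, scipy 1.17.1 and matplotlib 3.10.9 were used.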

Additional observations from a re-analysis of the deposited data

Results flagged for a closer look

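TCONS_00073926, a new lncRNA from the table outside the main comparison, had 20 reads in the CCl4 library and 5 reads in the oil library, above the level of the control. It lies at chromosome 7 from 12961129 to 12961844 on the plus strand, 26502 bases from Slc27a5, and overlaps the RefSeq genes 1810019N24Rik and Gm29638. Its RPKM was 3.52-fold higher in the CCl4 library. The CCl4 library held 80.0% of its reads (95% exact Clopper-Pearson interval 59.3% to 93.2%, counting error only). With the totals of the new lncRNA values, 6.24e+07 reads for oil and 7.10e+07 for CCl4, equal levels would give 53.2%. The median fold of all new lncRNAs, 1.39, would give 61.2%, a share inside that interval. These totals differ from the depths used for the mRNA values. The difference has no replicate check.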

How the results depend on the processing

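No paired analysis was possible because each group has 1 library. Leaving out a replicate could not be done for the same reason. Scaling to the other pathway genes and the 10000-base window were chosen after seeing the data. Of the 165 values recomputed under another setting, 104 stayed within 1.5 times for a count of calls or within the distance from the middle to the end of the counting interval for a log2 value, 60 moved further and 1 called gene turned direction, namely Abcb11 at 0.091 with scaling to the hepatocyte markers. Among the moved values, those of Slc10a1 and Nr1h4, which were not called, also changed sign, to 0.68 and 0.95 with that scaling and to 0.17 and 0.44 with scaling to the other pathway genes. The main values were 7 bile acid genes lower and 1 higher with a median of -1.36, 12 other pathway genes lower and 1 higher, and 586 of all genes lower and 1527 higher. Scaling to the median mRNA gene, a shift of -0.30, gave a median of -1.66, 24 other pathway genes lower, and 1038 of all genes lower and 854 higher, so that lower genes made up 54.9% of the calls instead of 27.7%. Scaling to the hepatocyte markers, a shift of 1.31, gave 1 bile acid gene lower, a median of -0.054, 1 pathway gene lower and 12 higher, and 44 of all genes lower and 8598 higher (0.509% of calls lower). Scaling to the other pathway genes gave 2 bile acid genes lower, a median of -0.56, 2 pathway genes lower and 4 higher, and 121 of all genes lower and 5927 higher. With calls from 2 on the log2 scale, 2 bile acid genes were lower and 0 higher, 2 pathway genes lower and 0 higher, and 75 of all genes lower and 188 higher. At 0.58, 25 pathway genes were lower and 2 higher, and 1293 of all genes lower and 3395 higher. With a mean of at least 10 RPKM, 0 pathway genes and 552 of all genes were higher, and lower genes made up 44.7% of the calls. Stricter limits lower the counts by construction, and the cause of the other shifts was not tested. Cyp7b1 at 1.88 RPKM in the CCl4 library depends on what is added, with -4.38 at 1 RPKM.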

Other observations

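New lncRNAs within 50000 bases of the 10 bile acid genes numbered 5 of 1443, a window chosen after the data were seen. Of these, 4 had fewer reads in the CCl4 library, whereas 60.4% of all new lncRNAs had the higher RPKM there. TCONS_00052769, 6278 bases from Cyp7b1, had 34 reads in the oil library and 2 reads in the CCl4 library. TCONS_00054056 (chromosome 4 from 49507485 to 49511238), which overlaps Baat and Gm52736, had 47 and 11 reads. TCONS_00054055, 2213 bases from Baat and overlapping Gm33009, had 41 and 6 reads, and TCONS_00073112, 12102 bases from Slc27a5, had 26 and 6 reads. Thus the new lncRNAs nearest to Cyp7b1 and Baat had fewer reads in the same library as those mRNAs. All 3 new lncRNAs within 10000 bases were lower in the CCl4 library. Whether these reads belong to separate transcripts or to the neighboring mRNA was not tested, and the strand setting of the counting is not given in the sources used here.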
